A study of Homo sapiens with 12 samples.

Results

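The genes described here are the 10 that encode the collagen hydroxylases P4HA1, P4HA2, PLOD1, PLOD2 and PLOD3, the lysyl oxidases LOX, LOXL1, LOXL2 and LOXL4, and the collagen chaperone SERPINH1. They were chosen by name, as a list of enzymes and a chaperone that act on the same protein family, and they are 10 of the 24559 gene symbols in the count table. This list and the lists of other genes below were chosen with earlier results of these data known. All 10 passed the filter on low counts that kept 16538 genes for testing, although LOXL4 passed only through its counts in MDA-MB-231.

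Polysome-associated RNA was sequenced in 3 established human triple-negative breast cancer lines in which the methyltransferase cofactor TRMT112 had been lowered or raised. MDA-MB-231 and SUM159 carried either a TRMT112 shRNA (KD) or a control vector (EV), which the sample labels call empty and the methods call a non-silencing shRNA, and both arms were selected with puromycin. BT549 carried either a TRMT112 open reading frame (OE) or the empty vector of that construct (EV), selected with G418, and no line carried both constructs. Each of the 6 groups had 2 libraries. Nothing states that these were separate cultures, so the p-values measure only the spread between libraries. Whether the selected cells were 1 clone or many was not stated. The lines were grown in different media, and BT549 also differed from the others in vector and selection drug. Line cannot be told apart from these. With no libraries of total RNA, a higher level can be more mRNA or more of it on polysomes, and these cannot be told apart either.

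Collagen chains are modified in the endoplasmic reticulum before they fold. Prolyl 4-hydroxylase, made of a catalytic alpha subunit (P4HA1, P4HA2 or P4HA3) and the beta subunit P4HB, hydroxylates prolines and so stabilizes the triple helix, while the lysyl hydroxylases PLOD1, PLOD2 and PLOD3 act on lysines, and SERPINH1 (HSP47) binds the folded procollagen until it leaves for the Golgi. After secretion and trimming, the copper-dependent lysyl oxidases oxidize lysines of collagen and elastin, which starts the cross-links that stiffen the matrix, and several of these genes are known targets of hypoxia-inducible factors and are studied in breast cancer invasion and metastasis.

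Library totals lay between 22954226 and 27434677 expected counts. Levels below are CPM (expected counts scaled to a common library total) after scaling by TMM, and fold changes come from edgeR's quasi-likelihood test with Benjamini-Hochberg adjustment over all 16538 genes, called at an adjusted p under 0.05. TRMT112 moved as labelled. It fell from 173.4 and 164.6 CPM in EV to 73.76 and 70.34 in KD in MDA-MB-231, and from 264.8 and 274.5 to 163.4 and 154.7 in SUM159. In BT549 it rose from 128.6 and 129.1 in EV to 179.2 and 180.6 in OE. The mesenchymal marker VIM was high in every group (716.5 to 1982 CPM as group means). CDH2, another mesenchymal marker, had 4 and 2 counts in MDA-MB-231 EV and 4 and 11 in KD, against 1376 and 1418 in SUM159 EV. ESR1 was not listed. Since no transcript listed is at 0 in all BT549 libraries, this does not give its level in MDA-MB-231 or SUM159. The 6 epithelial markers together stayed at or below 4.075 CPM in BT549. In MDA-MB-231 they summed to between 650.2 and 674.5 CPM in EV and 750.2 and 765.3 in KD. In SUM159 they summed to between 404.8 and 422.2 CPM in EV and 530.9 and 560.1 in KD. Nearly all of the sums in these 2 lines was KRT8 and KRT18 (means of 285.2 and 367.4 CPM in MDA-MB-231 EV, 206 and 206.3 in SUM159 EV). CDH1 had at most 8 counts in any library of these lines, and 58 and 46 in BT549 EV. In SUM159 KD KRT8 stood at 356.4 CPM and KRT18 at 188.8, while ESRP1 went from 38 and 14 counts in EV to 2 and 9.

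Across the 3 comparisons, P4HA2, PLOD1, LOX and LOXL1 rose each time, in both knockdowns and in the overexpression. In the KD lines the main transcripts of P4HA2 and LOX, tested singly, were not called. SERPINH1 was the 1 gene of the 10 called in the direction of TRMT112 in all 3, falling in both KD lines and rising in BT549 OE. The share of all genes with either of these joint patterns was not counted. In MDA-MB-231 KD, 5 of the 10 rose and 3 fell, where 21.2% of all genes tested were called higher and 16.5% lower. In SUM159 KD, 7 rose and 1 fell, against 28.6% and 31.4% of all genes. In BT549 OE, 9 rose and PLOD2 did not pass, against 35.6% of all genes called higher and 35.0% called lower. The median log2 fold change of the 10 was 0.19, 0.30 and 1.07 in these comparisons, and that of all genes was 0.00, 0.00 and 0.02. With LOXL4 set to the fold of its OE mean over a floor of 3 counts in each EV library, the BT549 median was 0.82.

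**Figure D1:**
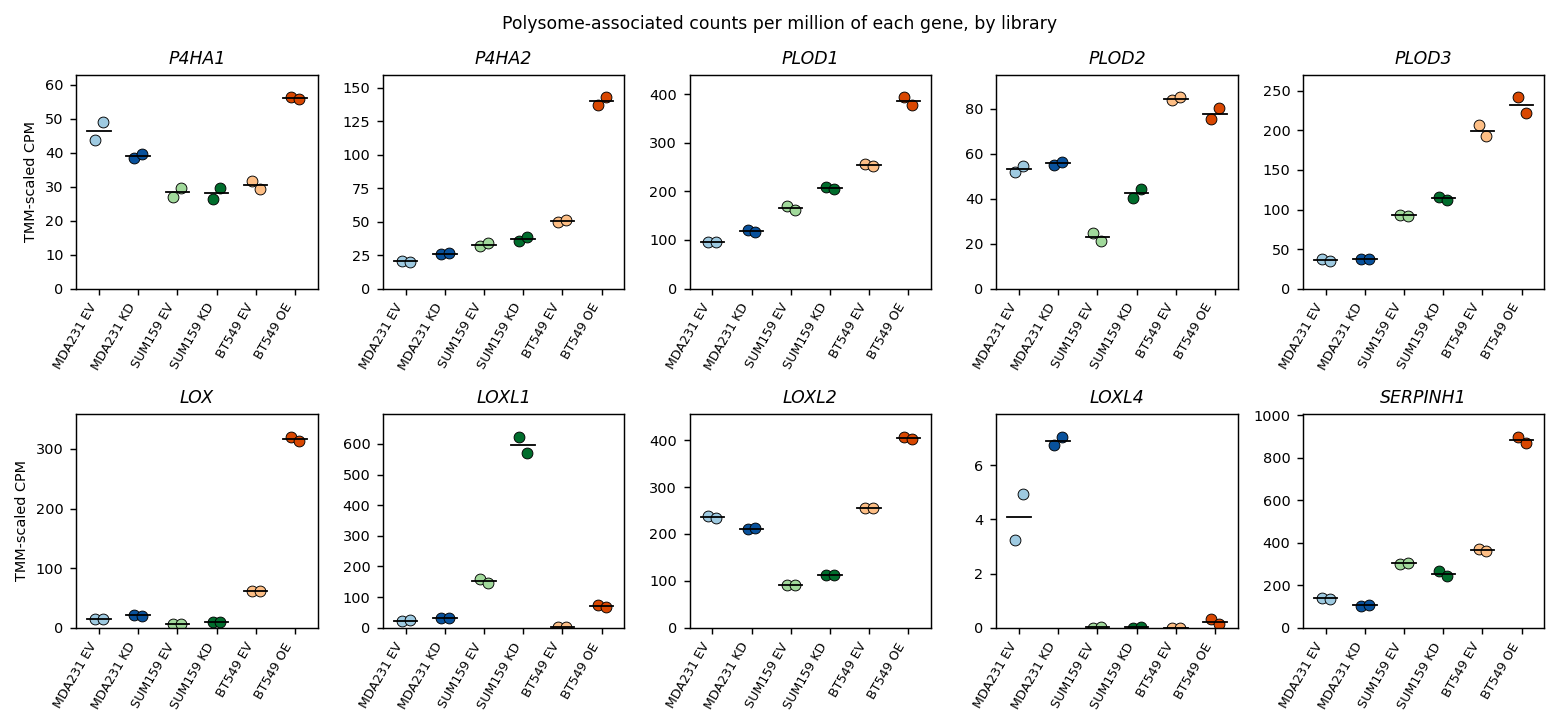
TMM-scaled CPM of each of the 10 genes, on a linear axis of its own from 0, with 1 point for each of the 12 libraries and a line at the mean of each group of 2 (MDA231 stands for MDA-MB-231). BT549 OE was the highest group for P4HA1, P4HA2, PLOD1, PLOD3, LOX, LOXL2 and SERPINH1, SUM159 KD for LOXL1, BT549 EV for PLOD2 and MDA-MB-231 KD for LOXL4.

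LOX, the founding lysyl oxidase, lies at chr5:122063195-122078413 on the minus strand (GRCh38). It stood at 14.91 and 14.62 CPM in MDA-MB-231 EV and at 21 and 20.59 in KD. In SUM159 it was at 7.216 and 5.843 CPM in EV and 10.12 and 10.45 in KD. The libraries of the groups did not overlap in either line. In BT549 it was at 62.54 and 62.09 CPM in EV and 320.5 and 312.8 in OE. LOX therefore rose in all 3 comparisons, by 0.49 ± 0.07 (SE), 0.66 ± 0.10 and 2.35 ± 0.05 on the log2 scale (edgeR's quasi-likelihood test, adjusted p = 8.45e-06, 4.81e-06 and 1.83e-22). The last is a 5.08-fold rise. In the KD lines the rise of the gene sum was not matched by a call of the main transcript: LOX-201, tested singly, was at 0.16 in MDA-MB-231 KD and 0.45 in SUM159 KD (edgeR over transcripts, adjusted p = 0.742 and 0.074).

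LOXL1, a lysyl oxidase best known for its part in elastic fibres, lies at chr15:73925989-73952137 on the plus strand. It had the widest range of the 9 genes for which a ratio could be formed, with its highest group mean 432 times the lowest. In MDA-MB-231 it was at 22.66 and 24.28 CPM in EV and 32.83 and 32.79 in KD. SUM159 had far more, with 160.2 and 147.2 CPM in EV and 623.1 and 568.7 in KD. BT549 EV had almost none, at 1.465 and 1.296 CPM (32 and 28 counts), while OE had 74.41 and 68.15. The rises were 0.48 ± 0.07, 1.95 ± 0.05 and 5.68 ± 0.12 on the log2 scale (edgeR's quasi-likelihood test, adjusted p = 1.55e-05, 3.01e-20 and 1.48e-21), or 1.4-fold, 3.88-fold and 51.4-fold. The exons of LOXL1 share 335 bases with the antisense gene LOXL1-AS1, which ranged from 0.1389 to 52.33 CPM over the libraries, and whether counting used the strand is not stated.

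LOXL2, a lysyl oxidase that acts on type IV collagen of basement membranes, lies at chr8:23296897-23425328 on the minus strand. It went in opposite directions in the KD lines. In MDA-MB-231 it was at 238.6 and 233.3 CPM in EV and 210.9 and 211.8 in KD. In SUM159 it was at 90.69 and 91.17 CPM in EV and 111.6 and 111.7 in KD. The log2 changes were -0.16 ± 0.03 and 0.30 ± 0.03 (edgeR's quasi-likelihood test, adjusted p = 0.000192 and 9.9e-08), both small beside the difference between the lines. In BT549 LOXL2 rose from 256.3 and 255.1 CPM to 407.2 and 403.1, a log2 change of 0.66 ± 0.03 (adjusted p = 1.48e-15).

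LOXL4, the least abundant of the 10, lies at chr10:98247690-98268194 on the minus strand. In MDA-MB-231 it had 82 and 129 counts in EV and 172 and 175 in KD (3.225 and 4.925 against 6.738 and 7.05 CPM). The rise of 0.76 ± 0.26 passed narrowly (edgeR's quasi-likelihood test, adjusted p = 0.026), and it did not pass with DESeq2 (adjusted p = 0.0701) or without MDA-MB-231 EV replicate 1 (0.48 on the log2 scale, adjusted p = 0.291), KD replicate 1 or KD replicate 2. In SUM159 it had 0 or 1 counts in every library, so no difference was detectable at this depth. In BT549 it had 0 counts in both EV libraries and 7 and 3 in OE. The OE mean was 1.69-fold above a floor of 3 counts per EV library. OE replicate 2 by itself lay close to that floor (0.142 against 0.138 CPM). The call of LOXL4 in BT549 rests on those few counts.

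The 4 lysyl oxidases were also compared within each library as counts per kilobase of transcript, where a share does not depend on scaling between libraries. Their sum was 83.7 ± 0.475 (SD, n = 2) CPM per kb in MDA-MB-231 EV and 85.6 ± 0.22 in KD. In SUM159 it went from 92.9 ± 3.23 to 288.2 ± 17.1, and in BT549 from 87.7 ± 1.26 to 215.4 ± 1.75. After TMM scaling the 3 EV groups had similar sums, but unlike shares, sums between lines depend on the scaling. Library size only shifts the EV comparisons on the log2 scale by -0.10 (SUM159 against MDA-MB-231), -0.31 (BT549 against MDA-MB-231) and -0.21 (BT549 against SUM159). The make-up of the sums differed: LOXL2 held 81.3% of the sum in MDA-MB-231 EV and 83% in BT549 EV, and LOXL1 held 70.5% in SUM159 EV. In SUM159 KD the LOXL1 share was 88.2%. In BT549 OE the LOXL2 share was 52.5%, with LOX at 33.4% (16.3% in EV) and LOXL1 at 14.1% (0.665% in EV). No test was made on shares of 2 against 2 libraries.

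**Figure D2:**
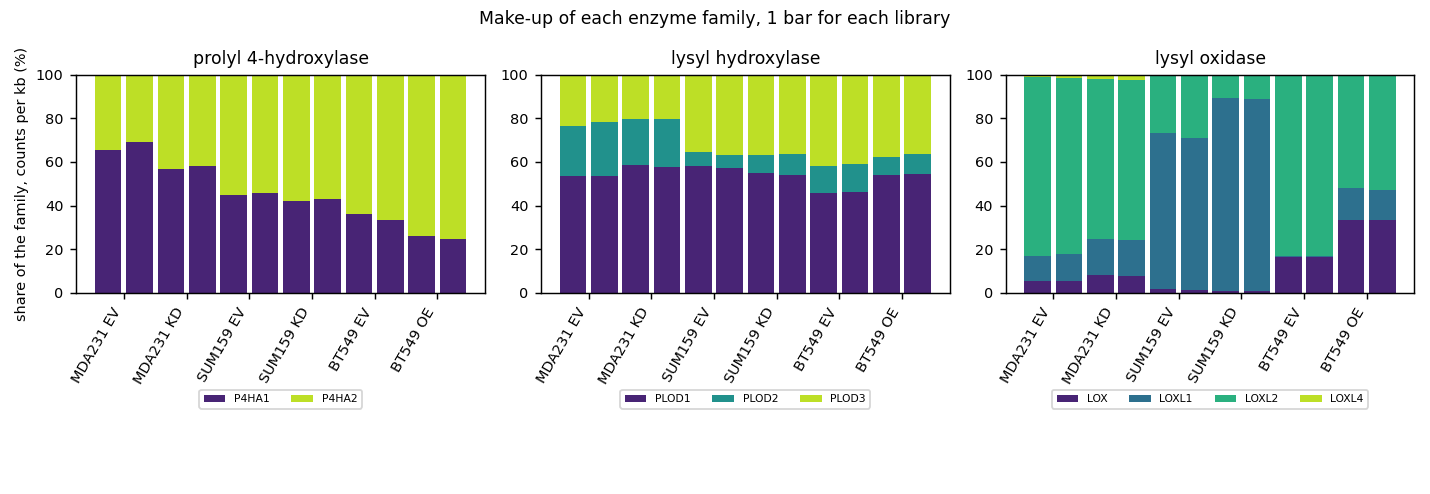
Share of each gene in its family (%, from CPM per kb of transcript), as stacked bars with 1 bar for each of the 12 libraries in the order of the groups on the x axis (MDA231 stands for MDA-MB-231). The pairs of bars within a group are alike, and LOXL1 fills most of the SUM159 lysyl oxidase bars. P4HA2 takes more of the prolyl 4-hydroxylase bars, which leave out P4HA3, in KD and OE than in EV of the same line.

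P4HA1, a catalytic subunit of prolyl 4-hydroxylase, lies at chr10:73007217-73096974 on the minus strand. It had the narrowest range, with its highest group mean 2 times the lowest. Its level in MDA-MB-231 was 43.74 and 49.1 CPM in EV and 38.47 and 39.48 in KD. Its level in SUM159 was 26.84 and 29.72 CPM in EV and 26.35 and 29.62 in KD, so the groups overlapped. Its level in BT549 was 31.64 and 29.21 CPM in EV and 56.21 and 55.66 in OE. P4HA1 fell by 0.25 ± 0.07 on the log2 scale in MDA-MB-231 KD (edgeR's quasi-likelihood test, adjusted p = 0.0055) and rose by 0.88 ± 0.07 in BT549 OE (adjusted p = 1.68e-10), with -0.01 ± 0.08 in SUM159 KD (adjusted p = 0.929). The fall in MDA-MB-231 did not pass without EV replicate 2 (-0.16, adjusted p = 0.151) or without KD replicate 1 (-0.23, adjusted p = 0.0548).

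P4HA2, the alternative catalytic subunit, lies at chr5:132190147-132295315 on the minus strand. The MDA-MB-231 libraries had it at 20.61 and 20.12 CPM in EV and 25.77 and 26.14 in KD. The SUM159 libraries had it at 31.57 and 33.84 CPM in EV and 35.49 and 38.37 in KD. The BT549 libraries had it at 49.95 and 51.11 CPM in EV and 136.6 and 142.6 in OE. P4HA2 rose in all 3, by 0.35 ± 0.07, 0.18 ± 0.06 and 1.47 ± 0.05 on the log2 scale (edgeR's quasi-likelihood test, adjusted p = 0.000261, 0.0153 and 1.9e-17). The SUM159 change was the smallest, and it did not pass without EV replicate 1 (0.13), without KD replicate 2 (0.12) or with scaling by library size only (0.14). The main transcript P4HA2-201, tested singly, was at -0.49 in SUM159 KD (edgeR over transcripts, adjusted p = 0.0853), opposite to the gene sum, and at 0.13 in MDA-MB-231 KD (adjusted p = 0.868).

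Between P4HA1 and P4HA2 alone, the balance moved toward P4HA2 in each comparison. As CPM per kb, P4HA1 made up 67.4% ± 2.41 (SD, n = 2) of their sum in MDA-MB-231 EV and 57.4% ± 0.659 in KD. SUM159 EV had a P4HA1 share of 45.3% ± 0.499 and KD 42.5% ± 0.864, while BT549 EV had 34.8% ± 1.75 and OE 25.4% ± 1.09. No test was made on these shares. The beta subunit P4HB, shown for its role although the rule for named genes did not pick it, exceeded the sum of P4HA1 and P4HA2 in every group. P4HB stood at 304 ± 3.19 CPM per kb in MDA-MB-231 EV, where P4HA1 and P4HA2 summed to 24.5 ± 1.16. In BT549 their sum went from 31.4 ± 0.0365 to 78.8 ± 2.66 CPM per kb while P4HB went from 542.9 ± 7.36 to 460.6 ± 14.1. The sum and the shares leave out P4HA3, which is not one of the 10, so they do not give the balance of all 3 alpha subunits. P4HA3 stood at 19.6 ± 0.0126 CPM per kb in BT549 EV and 56.6 ± 0.835 in OE. It stood at 2.24 ± 0.165 and 7.06 ± 0.138 in SUM159 EV and KD, and near 0 in MDA-MB-231.

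P4HA1 mRNAs carry 1 of 2 alternative exons of equal length, 71 bases each. They are shown because the 2 kinds of mRNA differ only in a short stretch of the protein, and because the deposited table counts them apart. Capitals mark the 28 positions at which the exons differ, and the other 43 (60.6%) are identical. Both are written 5′ to 3′ on the minus strand of GRCh38, exon A from chr10:73043887-73043957 and exon B from chr10:73044981-73045051.
P4HA1 exon A: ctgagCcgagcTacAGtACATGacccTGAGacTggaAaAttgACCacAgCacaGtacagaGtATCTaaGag
P4HA1 exon B: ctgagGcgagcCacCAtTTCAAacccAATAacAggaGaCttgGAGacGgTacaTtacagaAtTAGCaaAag
Transcripts with exon A held 69% and 63.6% of the P4HA1 counts in MDA-MB-231 EV and 67.8% and 71.5% in KD. SUM159 EV had 62% and 51.8%, and KD 54.1% and 61.6%. BT549 EV had 55% and 38.8%, and OE 51.9% and 61.3%. EV and treated libraries overlapped in all 3 lines. These shares rest on how the authors' counting divided reads between transcripts.

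PLOD1, the lysyl hydroxylase that modifies lysines within the helix, lies at chr1:11934205-11975538 on the plus strand. Levels in MDA-MB-231 were 95.74 and 95.87 CPM in EV and 120.3 and 117.3 in KD. Levels in SUM159 were 170.4 and 161.8 CPM in EV and 208.8 and 205.7 in KD. Levels in BT549 were 255.6 and 252 CPM in EV and 393.7 and 378.3 in OE. PLOD1 rose by a like amount in both KD lines, 0.31 ± 0.04 and 0.32 ± 0.03 on the log2 scale, and by 0.61 ± 0.03 in BT549 OE (edgeR's quasi-likelihood test, adjusted p = 7.12e-07, 2.83e-08 and 7.34e-14). It was the most abundant lysyl hydroxylase per kb in all 6 groups, with 46.1% to 58% of the family.

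PLOD2, the lysyl hydroxylase of the telopeptides, whose action favours stable cross-links, lies at chr3:146035139-146163725 on the minus strand. In MDA-MB-231 it was at 52.12 and 54.75 CPM in EV and 55.11 and 56.48 in KD. In SUM159 it was at 24.86 and 21.23 CPM in EV and 40.26 and 44.44 in KD. In BT549 it was at 83.92 and 85.1 CPM in EV and 75.43 and 80.22 in OE. PLOD2 rose in SUM159 KD, by 0.88 ± 0.07 on the log2 scale (edgeR's quasi-likelihood test, adjusted p = 1.89e-10). Its values were 0.06 ± 0.06 in MDA-MB-231 KD (adjusted p = 0.471) and -0.12 ± 0.06 in BT549 OE (adjusted p = 0.0722), which passed as a fall with each line fitted alone (-0.13). PLOD2 held between 6.37% (SUM159 EV) and 24% (MDA-MB-231 EV) of the lysyl hydroxylase counts per kb.

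PLOD2 mRNAs include or skip an exon of 63 bases, which is 21 whole codons. The exon, known as the one that makes the long form of the enzyme, is shown because its inclusion in the BT549 libraries stood apart between EV and OE. It is written 5′ to 3′ on the minus strand of GRCh38, from chr3:146077862-146077924.
PLOD2 alternative exon: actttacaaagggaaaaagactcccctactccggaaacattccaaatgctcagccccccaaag
Transcripts with the exon held 65.1% and 66.5% of the counts of spanning PLOD2 transcripts in BT549 EV and 91% and 77% in OE. The groups did not overlap, but the 2 OE libraries differed from each other by more than the lower one did from EV. The share was 74.5% and 67.4% in MDA-MB-231 EV, 70.7% and 71.9% in its KD, 77.6% and 68% in SUM159 EV and 74.4% and 68.3% in its KD. In these lines EV and KD overlapped. No test was made, and the table divides reads over 30 PLOD2 transcripts.

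**Figure D3:**
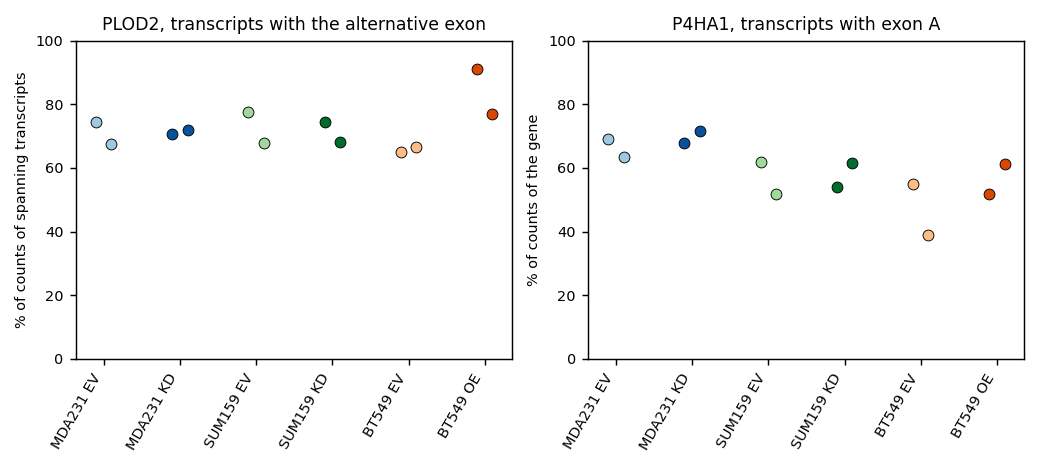
Left, share of the counts of PLOD2 transcripts spanning the 63-base exon that include it (%); right, share of P4HA1 counts in transcripts with exon A (%); 1 point for each of the 12 libraries (MDA231 stands for MDA-MB-231). Both BT549 OE points on the left, 91% and 77%, lie above both BT549 EV points, 65.1% and 66.5%, and EV and treated points overlap in every line on the right.

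PLOD3, which is also a glycosyltransferase of hydroxylysine, lies at chr7:101205977-101218420 on the minus strand. MDA-MB-231 had it at 36.9 and 35.17 CPM in EV and 37.84 and 37.14 in KD. SUM159 had it at 93.47 and 92.35 CPM in EV and 115.9 and 112.1 in KD. BT549 had it at 206.7 and 192.9 CPM in EV and 241.8 and 222.7 in OE. PLOD3 rose modestly in SUM159 KD (0.29 ± 0.05) and BT549 OE (0.22 ± 0.04), with 0.06 ± 0.06 in MDA-MB-231 KD (edgeR's quasi-likelihood test, adjusted p = 6.94e-06, 7.14e-05 and 0.499). The 3 lysyl hydroxylases together stood at 60.9 and 70.4 CPM per kb in MDA-MB-231 EV and KD, at 97.8 and 129.1 in SUM159, and at 186.4 and 241.2 in BT549 EV and OE.

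SERPINH1, the collagen-specific chaperone, lies at chr11:75562056-75572783 on the plus strand. For MDA-MB-231 the values were 142.7 and 138 CPM in EV and 104 and 109.2 in KD. For SUM159 the values were 302.4 and 307 CPM in EV and 265.7 and 245.7 in KD. For BT549 the values were 371.9 and 361.3 CPM in EV and 899.5 and 869 in OE. SERPINH1 fell by 0.40 ± 0.04 and by 0.25 ± 0.04 on the log2 scale in the KD lines and rose by 1.27 ± 0.03, or 2.41-fold, in OE (edgeR's quasi-likelihood test, adjusted p = 4.84e-08, 1.61e-06 and 1.15e-19). The libraries of EV and treated groups did not overlap in any line.

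**Figure D4:**
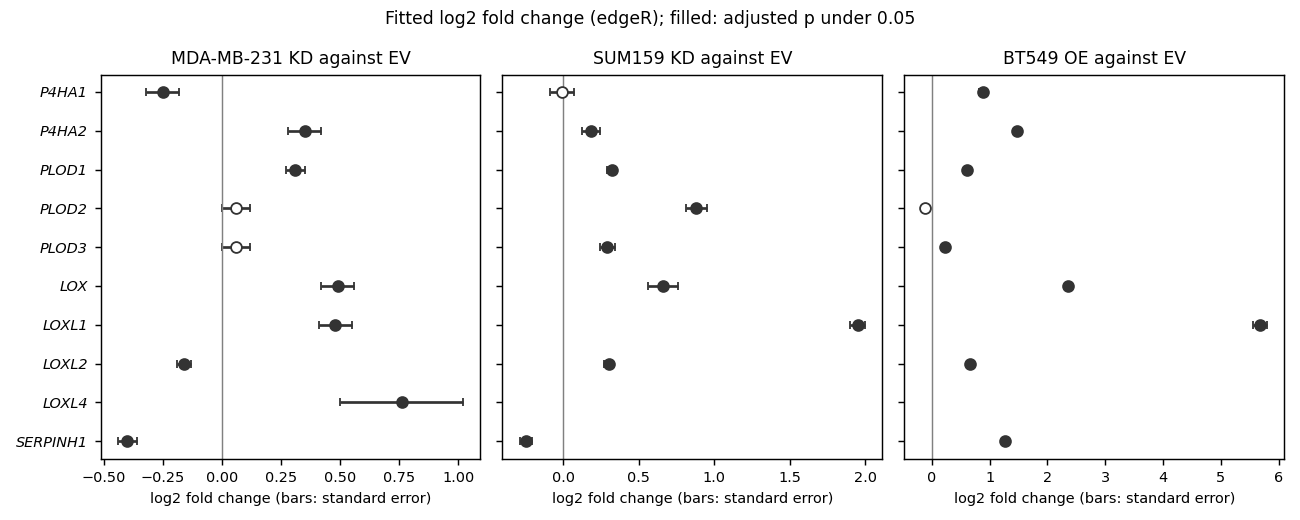
Fitted log2 fold change (x axis, a different range in each panel) of each gene against EV, with bars of 1 standard error and filled points for an adjusted p under 0.05. LOXL4 is not drawn in SUM159 and BT549, where counts were at or near 0. LOXL1 has the largest change drawn in SUM159 KD (1.95) and BT549 OE (5.68), and SERPINH1 is below 0 in both KD panels and above 0 in OE.

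The knockdown effects were compared directly between MDA-MB-231 and SUM159 by an interaction contrast, in which 50.9% of all genes tested were called. Of the 10 genes, 5 were called, each with a lower effect in MDA-MB-231: LOXL1, PLOD2, LOXL2, PLOD3 and SERPINH1, and the other 5 did not pass. For LOXL1 and PLOD2 the differences were -1.47 ± 0.09 and -0.82 ± 0.09 on the log2 scale (edgeR's quasi-likelihood test, adjusted p = 1.83e-12 and 1.06e-07). LOXL2 differed by -0.45 ± 0.05 (adjusted p = 1.45e-08), falling in one line and rising in the other. PLOD3 differed by -0.24 ± 0.08 (adjusted p = 0.0117) and SERPINH1 by -0.14 ± 0.05 (adjusted p = 0.0325). TRMT112 itself was lowered more in MDA-MB-231, by a difference of -0.47 ± 0.06 (adjusted p = 1.83e-07), and the part of this in the results above was not tested. SERPINH1 lost its call without MDA-MB-231 EV replicate 1, KD replicate 1, SUM159 EV replicate 1, EV replicate 2 or KD replicate 1, and PLOD3 without MDA-MB-231 EV replicate 1 (-0.20) or KD replicate 2 (-0.22).

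Between the EV groups of the lines, each of the 10 genes was called in at least 1 comparison, LOXL4 only in those against MDA-MB-231. In SUM159 EV against MDA-MB-231 EV, where 75.7% of all genes were called, P4HA2, PLOD1, PLOD3, LOXL1 and SERPINH1 were higher and P4HA1, PLOD2, LOX and LOXL2 lower. LOXL1 was 6.54-fold higher and LOXL2 2.59-fold lower in SUM159. LOXL4, which the filter kept only for its counts in MDA-MB-231, had to be lower in the other lines, and its counts above are a description. In BT549 EV against MDA-MB-231 EV, where 79.5% were called, 7 of the 10 were higher, led by PLOD3 (5.55-fold) and LOX (4.22-fold), and P4HA1 and LOXL1 were lower. LOXL1 was 16.9-fold lower in BT549. LOXL2 was called 1.08-fold higher there but reversed, to -0.20 on the log2 scale, with scaling by library size only, which moves all genes of that comparison by -0.31. In BT549 EV against SUM159 EV, where 78.4% were called, 7 were higher, led by LOX (9.54-fold) and PLOD2 (3.67-fold), and LOXL1 was 111-fold lower. These comparisons share their EV libraries with each other and with the comparisons above.

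The levels of the 10 genes over the 12 libraries fell into different patterns, given here as Pearson's r of log2 CPM, a description in which the libraries share only 3 lines. PLOD1 and PLOD3 had r = 0.97 with each other, and SERPINH1 had r = 0.94 with PLOD1 and r = 0.93 with P4HA2 and with PLOD3. PLOD2 and LOX each had r = 0.89 with LOXL2. LOXL4 had r = -0.82 with PLOD3, -0.69 with PLOD1 and -0.68 with SERPINH1, and LOXL1 had r = -0.63 with PLOD2 and -0.55 with LOXL2. With genes of a mean count under 50 left out, the one most like each was CTDNEP1 for P4HA1 (r = 0.972), ALG1 for P4HA2 (0.995), YKT6 for PLOD1 (0.996), APBB1 for PLOD2 (0.985) and ARHGEF10 for PLOD3 (0.997). For the others it was ACHE for LOX (0.991), SDC3 for LOXL1 (0.994), PGM5 for LOXL2 (0.990), SPNS3 for LOXL4 (0.990) and MEST for SERPINH1 (0.996). LOXL4 had few or no counts outside MDA-MB-231, so all its r values mainly restate MDA-MB-231 against the other lines.

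Transcripts were also tested singly, and of the 66844 tested, 3.49% were called in MDA-MB-231 KD, 12.5% in SUM159 KD, 21.4% in BT549 OE and 8.46% in the interaction. PLOD1-201, PLOD3-201, LOXL1-201, LOXL2-201 and SERPINH1-201 each held at least 88.7% of their gene's counts in every library. LOX was divided between LOX-201 (32% to 80.6%) and LOX-206, annotated as a target of nonsense-mediated decay (15% to 46.1%). In BT549 OE both rose, LOX-201 by 2.54 and LOX-206 by 1.54 on the log2 scale (edgeR's quasi-likelihood test over transcripts, adjusted p = 1.45e-07 and 0.000897). The shorter LOX-202 rose in BT549 OE (2.87, adjusted p = 8.87e-05) and in SUM159 KD (1.51, adjusted p = 0.0227). In SUM159 KD, PLOD2-209 rose by 2.69 (adjusted p = 0.00495), while the main transcript PLOD2-201 had 0.48 (adjusted p = 0.118).

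The substrates were the collagen chains and elastin, 16 of 18 listed genes tested. From here on a value in parentheses after a gene is its log2 fold change ± SE, and the verbs rose and fell stand for an adjusted p under 0.05. The counts of this list and of those below stand beside these shares of all genes tested. In MDA-MB-231 KD 21.2% rose and 16.5% fell, in SUM159 KD 28.6% and 31.4%, and in BT549 OE 35.6% and 35.0%. Of the 16 substrates tested, 14 rose in BT549 OE and 2 did not pass, with a median log2 fold change of 1.95. COL3A1, a chain of the fibrillar type III collagen, went from 29 and 15 counts in EV to 11714 and 11554 in OE (9.06 ± 0.10, edgeR's quasi-likelihood test, adjusted p = 2.22e-26). Elastin (ELN) and COL5A3, both at 0 counts in BT549 EV, were at least 1690-fold and 29.2-fold higher in OE. In SUM159 KD 6 substrates rose and 8 fell (median -0.75, or -0.39 with a gene of few counts set to its bound), with COL1A2 higher by 2.13 ± 0.27 and COL5A3 and COL3A1 lower (-2.69 ± 0.20 and -2.02 ± 0.14). In MDA-MB-231 KD 3 rose and 2 fell (median -0.02, or 0.03 with the bounds), with COL6A2 and COL6A1 higher by 0.76 ± 0.04 and 0.73 ± 0.06 and ELN lower (-1.57 ± 0.46). COL6A2 and COL6A1 fell in SUM159 KD (-1.67 ± 0.04 and -1.50 ± 0.05) and rose in BT549 OE (5.91 ± 0.06 and 4.46 ± 0.05), where COL1A2 also rose (2.03 ± 0.04).

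The ratio of the 10 genes to 17 substrates, as sums of CPM per kb, was higher in SUM159 KD than in EV. It was lower than in EV in both MDA-MB-231 KD and BT549 OE. SUM159 EV had ratios of 1.8 and 1.7 and KD 2.91 and 2.8, while BT549 EV had 3.54 and 3.48 and OE 0.801 and 0.807. In SUM159 the 10 genes went from 375.5 and 369 to 586.7 and 555 CPM per kb, and the substrates from 209.1 and 217.2 to 201.5 and 197.9. Most of that rise was LOXL1, with means of 65.44 in EV and 254.2 in KD, while SERPINH1 went from 159.3 to 130.1. A ratio without LOXL1 was not computed. In BT549 the 10 genes went from 494.3 and 485.1 to 986 and 960.2 CPM per kb while the substrates went from 139.4 in both libraries to 1230 and 1190. MDA-MB-231 EV had ratios of 4.71 and 4.53, and KD 3.6 and 3.29.

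Other genes that modify or fold collagen numbered 17, all tested. Of these, 7 rose and 3 fell in MDA-MB-231 KD, 9 rose and 6 fell in SUM159 KD, and 13 rose and 4 fell in BT549 OE, with medians of 0.08, 0.22 and 0.52. P4HA3, the remaining prolyl 4-hydroxylase alpha subunit, rose from 126 and 110 counts to 362 and 422 in SUM159 KD (1.62 ± 0.10) and from 934 and 938 to 2751 and 2653 in BT549 OE (1.55 ± 0.06). It had 3 counts in each MDA-MB-231 EV library and 0 in each KD library, so its place among the 3 that fell there rests on those few counts. LOXL3, the remaining lysyl oxidase, had 2 and 0 counts in BT549 EV and 78 and 79 in OE, at least 26.6-fold higher. The prolyl 3-hydroxylase P3H3 rose in MDA-MB-231 KD, SUM159 KD and BT549 OE (0.68 ± 0.05, 0.40 ± 0.05 and 0.70 ± 0.04), as did the galactosyltransferase COLGALT1 (0.20 ± 0.03, 0.55 ± 0.03 and 0.52 ± 0.03). P3H2 rose in MDA-MB-231 KD (0.56 ± 0.04) and BT549 OE (0.70 ± 0.04) and fell in SUM159 KD (-0.35 ± 0.04). The chaperone HSPA5 rose in SUM159 KD (0.53 ± 0.04) and fell in MDA-MB-231 KD (-0.42 ± 0.04) and BT549 OE (-1.33 ± 0.04). COLGALT2 rose in SUM159 KD (0.41 ± 0.17) and fell in BT549 OE (-2.28 ± 0.12).

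Of 14 tested genes for procollagen export and cleavage, 6 rose and 1 fell in MDA-MB-231 KD, 8 rose and 3 fell in SUM159 KD, and 6 rose and 7 fell in BT549 OE (medians 0.06, 0.30 and -0.14). ADAMTS2, the procollagen N-proteinase, rose in SUM159 KD (1.53 ± 0.05) and from 13 and 15 to 687 and 698 counts in BT549 OE (5.64 ± 0.15). CREB3L1, a transcription factor that drives procollagen genes, rose in MDA-MB-231 KD (0.11 ± 0.04) and SUM159 KD (0.91 ± 0.03) and fell in BT549 OE from 3406 and 3317 to 151 and 118 counts (-4.62 ± 0.06). PCOLCE, which enhances cleavage of the C-propeptide, rose in SUM159 KD (0.57 ± 0.06) and BT549 OE (2.12 ± 0.19). TRAM2 rose in SUM159 KD (1.61 ± 0.04) and MDA-MB-231 KD (0.34 ± 0.03) and fell in BT549 OE (-1.12 ± 0.03). BMP1, the C-proteinase that also activates LOX, rose in MDA-MB-231 KD (0.42 ± 0.09), SUM159 KD (0.68 ± 0.05) and BT549 OE (1.22 ± 0.05). MIA2, a cargo receptor gene, fell in the same 3 comparisons (-0.37 ± 0.09, -0.63 ± 0.08 and -0.63 ± 0.09).

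The copper carriers and scaffold proteins that lysyl oxidases depend on numbered 9, all tested. In MDA-MB-231 KD 2 rose and 2 fell, in SUM159 KD 3 rose and 1 fell, and in BT549 OE 6 rose and 3 fell (medians 0.16, 0.36 and 1.32). EFEMP2 (fibulin-4), which docks LOX to elastin, rose in MDA-MB-231 KD from 53 and 67 to 357 and 336 counts (2.56 ± 0.12) and in BT549 OE (2.21 ± 0.05). FBLN5 (fibulin-5), a partner of LOXL1, rose in SUM159 KD (0.90 ± 0.05) and BT549 OE (2.58 ± 0.21) and fell in MDA-MB-231 KD (-0.67 ± 0.15). Fibronectin (FN1) rose in both KD lines, by 0.38 ± 0.06 in MDA-MB-231 and 1.49 ± 0.04 in SUM159, and fell in BT549 OE (-0.96 ± 0.05). ATP7A, the copper pump that loads lysyl oxidases, rose in SUM159 KD (0.70 ± 0.26) and fell in BT549 OE (-1.14 ± 0.24), and periostin (POSTN) went from 12 and 6 to 4328 and 4333 counts in BT549 OE (8.92 ± 0.14).

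**Figure D5:**
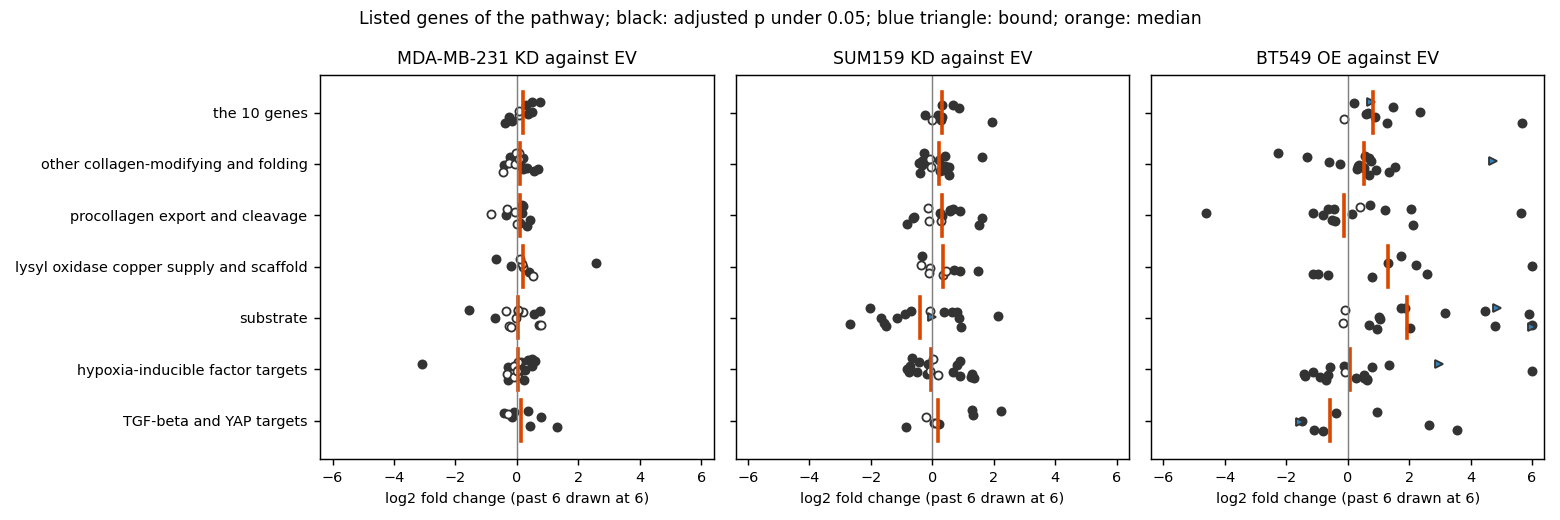
Log2 fold change against EV (x axis, values past 6 drawn at 6) of each tested gene of each list in the 3 comparisons, with black points for an adjusted p under 0.05, white points for the rest, blue triangles for folds set to the bound that 3 counts allow, and an orange bar at the median of the list with those bounds; genes with 3 counts or fewer in all 4 libraries are not drawn, and vertical jitter is random. In BT549 OE nearly all substrates lie above 0 (median 1.95), while hypoxia-inducible factor targets lie on both sides (median 0.09).

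Since several of the 10 are known hypoxia-inducible genes, 18 other targets of hypoxia-inducible factors were counted. In MDA-MB-231 KD 7 rose and 3 fell, in SUM159 KD 7 rose and 8 fell, and in BT549 OE 9 rose and 8 fell, with medians of 0.03, -0.03 and 0.09, near those of all genes. CA9, carbonic anhydrase IX, fell in MDA-MB-231 KD from 132 and 131 to 17 and 13 counts (-3.09 ± 0.20) and in BT549 OE (-1.43 ± 0.45), and rose in SUM159 KD (1.36 ± 0.07). ADM, adrenomedullin, rose in both KD lines (0.58 ± 0.04 and 1.25 ± 0.10) and fell in BT549 OE (-1.14 ± 0.12). NDRG1 rose in MDA-MB-231 KD (0.49 ± 0.04), in SUM159 KD (0.67 ± 0.04) and from 68 and 65 to 7841 and 7239 counts in BT549 OE (6.85 ± 0.07). BNIP3 rose in both KD lines (0.22 ± 0.04 and 1.30 ± 0.04) and fell in BT549 OE (-0.64 ± 0.06). EGLN3, an oxygen-sensing prolyl hydroxylase, rose in SUM159 KD (0.89 ± 0.09) and had 0 counts in BT549 EV and 31 and 15 in OE, at least 7.77-fold higher.

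The 5-base core of the hypoxia response element, ACGTG, was searched on both strands of the RefSeq promoters (GRCh38.p14, 250 bases before to 50 after a start). Of the 9 of these genes with a promoter in the table, 4 held it (44.4%), as did 9 of 15 listed hypoxia-inducible factor targets (60%) and 24.9% of 27305 symbols. A match is a description of these letters and not a bound site. The windows below are those of P4HA1, PLOD2, LOX and SERPINH1, the genes of the 10 that carry it, with 1 match shown for each: the core, or CACGT where it is on the other strand, is in capitals with 10 bases on each side, 5′ to 3′ on the strand of the gene. They come from chr10:73096938-73096962, chr3:146161316-146161340, chr5:122078287-122078311 and chr11:75562279-75562303.
P4HA1: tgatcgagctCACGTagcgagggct
PLOD2: aacagtccagACGTGgggcccagga
LOX: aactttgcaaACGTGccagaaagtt
SERPINH1: gagcgagagtCACGTcccggcgcta
The first base of the core lies at -86 in P4HA1, -146 in PLOD2, -42 in LOX and -184 in SERPINH1, counted from a start of each gene. Counted from another start of SERPINH1, the same core lies at 37, after that start. PLOD2 and LOX hold further matches in their windows.

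Of 8 targets of TGF-beta and YAP signalling, 4 rose and 3 fell in MDA-MB-231 KD, 5 rose and 1 fell in SUM159 KD, and 3 rose and 5 fell in BT549 OE (medians 0.13, 0.17 and -0.59). TGFBI rose in MDA-MB-231 KD (1.31 ± 0.07), SUM159 KD (0.07 ± 0.03) and BT549 OE (3.56 ± 0.06). CCN2, a target of both pathways, fell in MDA-MB-231 KD (-0.11 ± 0.03) and rose in SUM159 KD (1.33 ± 0.09) and BT549 OE (2.66 ± 0.04). CCN1 fell in MDA-MB-231 KD (-0.43 ± 0.03) and rose in SUM159 KD (1.28 ± 0.03) and BT549 OE (0.97 ± 0.03). ANKRD1 rose in both KD lines (0.77 ± 0.03 and 2.25 ± 0.24). It had 14 and 4 counts in BT549 EV and 2 and 1 in OE, with the EV mean 2.94-fold above a floor of 3 counts.

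Other markers also differed between EV and treated groups, and the members of a list often went apart. The 8 fibroblast markers summed to between 467.5 and 485.1 CPM in BT549 EV and between 2788 and 2910 in OE, to between 41.78 and 45.61 in SUM159 EV and 297.1 and 308 in KD, and to between 9.362 and 9.545 in MDA-MB-231 EV and 23.5 and 25.54 in KD. Most of the sum in BT549 and in SUM159 KD was THY1, a surface glycoprotein of fibroblasts that mesenchymal tumour cells can also carry. In MDA-MB-231 nearly all of the sum was PDGFRB, with 236 and 248 counts in EV and 599 and 631 in KD. The small matrix proteoglycans DCN and LUM, which mark fibroblasts, had 0 counts in BT549 EV and 162 and 170, and 72 and 66, in OE. In SUM159, by contrast, DCN went from 67 and 77 counts in EV to 34 and 24 in KD. PDGFRA went from 58 and 54 to 4 and 5, and PDGFRB from 230 and 248 to 99 and 126. The higher sum in SUM159 KD therefore came from THY1. The 6 interferon-stimulated genes went from between 9866 and 10010 CPM in BT549 EV to between 74.92 and 83.86 in OE. The 4 mesenchymal markers went apart in BT549: VIM was at 1979 and 1985 CPM in EV and 729.6 and 703.3 in OE and ZEB1 at 89 and 90.1 against 41.72 and 40.99, while SNAI2 was at 29.03 and 29.08 against 274.8 and 269.3 and CDH2 at 44.73 and 46.02 against 46.21 and 50.22. Of the immune list, CD68, which tumour cells also express, was at 173.4 and 178.7 CPM in BT549 EV and 6.807 and 6.957 in OE (183.1 and 178.8 in MDA-MB-231 EV), and CD14 had 13 and 11 counts in BT549 EV and 78 and 80 in OE. PTPRC, the general leukocyte marker, had at most 16 counts in any library. Of the endothelial list, CDH5 had 18 and 16 counts in MDA-MB-231 EV and 105 and 81 in KD, and PECAM1 had 24 and 25 in SUM159 EV and 88 and 119 in KD. Their part in the results of the 3 lines was not tested. VWF and KDR of the endothelial list and CD3E and MS4A1 of the immune list were not listed in the table, which leaves their levels in MDA-MB-231 and SUM159 unknown.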

How the data were processed

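The authors pooled polysome fractions from sucrose gradients and sequenced their RNA. For the libraries the methods name a stranded rRNA-depleted kit and the labels a poly(A) kit. According to the methods, reads were trimmed with Trimmomatic, aligned to GRCh38 with HISAT2 and stripped of duplicates with SAMtools, and Partek was used. The counting tool, annotation and strand setting are not given in the sources used here. The deposited table, with a row for each Ensembl transcript, has expected counts that were not normalized, in 12 columns, all used. Reads that fit more than 1 transcript are split, which makes transcript values less certain than gene sums. In 5.08% of the rows the MDA-MB-231 and SUM159 columns, recorded as of other unit, hold a missing mark, taken here as 0; these rows hold 0.121% of the BT549 counts. No transcript listed is at 0 in all 4 BT549 libraries, so a gene absent from BT549 is not analysed here.

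Transcripts were matched to GENCODE 44 without version numbers (79.6%), summed to symbols (111 join several genes) and rounded. Library totals lay between 22954226 and 27434677. Floors of 3 counts cover counting error only, and a fold against a floor takes the mean of the other group as exact. edgeR 4.0.16 in R 4.3.3 (filterByExpr, TMM, quasi-likelihood, 1 model of 6 group means, 6 residual degrees of freedom, common dispersion 0.000835) tested 7 contrasts, with Benjamini-Hochberg adjustment over 16538 genes at 0.05. SE is the size of the log2 fold change divided by the square root of F. Shares used counts per kb of each transcript. Replicates of a group differed by more than sampling noise (chi-square per degree of freedom 2.06 to 3.12). Same-numbered libraries did not deviate together (correlations 0.00287, -0.0299 and 0.0161). The test was checked on simulated counts, where it missed some of the changed genes and somewhat more of its calls were false than the adjusted p-value allows, so adjusted p-values near the threshold are less certain than they read. Python 3.11.15, pandas 2.3.3, numpy 2.4.6, scipy 1.17.1 and matplotlib 3.10.9 were used for the rest.

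The members and lists were chosen with earlier results of these data known. Every member is named, and from each list the 3 called genes with the largest absolute change in each comparison with a mean of at least 50 counts. The alternatives tried were DESeq2 1.42.0, scaling by RLE or by library size only, dropping the filter or requiring a mean count of 50, a replicate block, each line alone, marked transcripts left out, matching with version numbers, leaving out each library, main transcripts singly, and shares without division by length. Exons on the opposite strand overlap P4HA1, P4HA2, PLOD3, LOX, LOXL1, LOXL2 and LOXL4, and ENTPD4 shares 120 bases with LOXL2 on the same strand. Promoters are from RefSeq. Protein sequences were not used here.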

Additional observations from a re-analysis of the deposited data

Results flagged for a closer look

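The knockdown effect differed between MDA-MB-231 and SUM159 for 5 of the 10 genes, by the interaction contrast of edgeR's quasi-likelihood test at an adjusted p under 0.05. As the effect in MDA-MB-231 minus that in SUM159 on the log2 scale, the differences were -1.47 for LOXL1, -0.82 for PLOD2, -0.45 for LOXL2, -0.24 for PLOD3 and -0.14 for SERPINH1. LOXL1 and PLOD2 rose in SUM159 KD by 1.95 and 0.88, with 0.48 and 0.06 in MDA-MB-231 KD. LOXL2 fell in MDA-MB-231 KD (-0.16) and rose in SUM159 KD (0.30). In the same contrast 50.9% of all genes tested were called, so a difference between these lines was common. No group had enough libraries to look for outlying samples.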

How the results depend on the processing

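With 2 libraries per group, no total RNA and media that differ by line, the values describe these libraries. The replicate block changed no count of the 10 genes called (5 higher and 3 lower in MDA-MB-231 KD, 7 and 1 in SUM159 KD, 9 higher in BT549 OE), and the numbers did not pair the libraries. With main transcripts tested singly, 2 genes were called higher in MDA-MB-231 KD, 4 in SUM159 KD, and 2 lower in the interaction. Calls were lost in MDA-MB-231 KD for P4HA1 (-0.22), P4HA2 (0.13), LOX (0.16) and LOXL4 (0.75), in SUM159 KD for PLOD2 (0.48) and LOX (0.45), and in the interaction for PLOD2 (-0.43), PLOD3 (-0.16) and SERPINH1 (-0.16), and the cause was not tested. The genes called lower in BT549 OE by edgeR numbered 0 (0 at an unadjusted p under 0.05, 0 by DESeq2), 1 with each line fitted alone (PLOD2, -0.13) and 0 to 1 when leaving out a library (1 without SUM159 EV replicate 2 or BT549 OE replicate 2). Of the log2 fold changes of the 10 genes in 7 comparisons, 617 kept direction and call under the alternatives that keep all libraries, 14 lost the call, 7 gained it and 13 reversed, and without 1 library these numbers were 812, 14, 5 and 9. P4HA1 gained the call in the interaction with RLE size factors (-0.27) and with DESeq2 (-0.27).

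The reversals were mostly of values near 0, and the cause was not tested. With library size only, PLOD2 and PLOD3 in MDA-MB-231 KD were at -0.03 each, LOXL2 in BT549 EV against MDA-MB-231 EV at -0.20 and P4HA1 in BT549 EV against SUM159 EV at -0.11; this scaling shifts the 3 EV comparisons by -0.10 (SUM159 against MDA-MB-231), -0.31 and -0.21, and the KD and OE comparisons by -0.09, -0.04 and 0.02. P4HA1 in SUM159 KD was at 0.04 with RLE size factors and with DESeq2, 0.01 with a mean of at least 50 counts, 0.05 with the main transcript and -0.10 to 0.07 without 1 library. With the main transcript, P4HA2 in SUM159 KD was at -0.49, PLOD2 in BT549 OE at 0.33, PLOD2 in BT549 EV against MDA-MB-231 EV at -0.03 and P4HA1 in BT549 EV against SUM159 EV at -0.09. PLOD1 in the interaction was at 0.01 with no filter and -0.04 to 0.03 without 1 library. LOXL4, with 0 or 1 counts in SUM159, ranged without 1 library from -2.31 to 2.24 in SUM159 KD, -1.48 to 3.06 in the interaction and -3.18 to 0.00 in BT549 EV against SUM159 EV. Of the family shares, 45 of those computed without division by length moved by more than the replicate SD and 9 did not.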
